A study of Homo sapiens with 4 samples.

Results

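The genes described here encode regulators and core subunits of the anaphase-promoting complex (APC/C) and cyclin F. They were listed by name, with earlier results of these data known. They comprise 6 regulators (CDC20, FZR1, FBXO5, UBE2C, UBE2S and CCNF) and 4 core subunits (CDC16, CDC23, CDC27 and ANAPC1). All 10 were present among the 23615 genes of the deposited table, and all 10 passed the filter on low counts that kept 11761 genes. Their transcripts were measured by RNA-seq in K562, an established human leukaemia cell line with erythroid features. Treated cells received 5 µM clofarabine, a deoxyadenosine analogue that inhibits ribonucleotide reductase and DNA polymerases, in 0.005% DMSO, and the control cells received DMSO, the drug's solvent. Both groups were collected at 3 h, with 2 libraries each, called C0 and C1 for clofarabine and V0 and V1 for DMSO.

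The table names its conditions by letter only. C was taken to mean clofarabine and V vehicle, and the opposite reading would turn every direction given here. Estimated fragment counts summed to 13175626 in C0 and 23888755 in C1, against 8370550 in V0 and 11119384 in V1, so the clofarabine libraries were the deeper ones. The 7 erythroid markers reported (HBG1, HBG2, HBE1, GATA1, TAL1, TFRC and LMO2) had at least 35.1 FPKM in every library, and 7 markers of lymphoid, liver, epithelial and stromal cells had at most 2.92 FPKM, MS4A1 and KRT5 having no fragment. The labels do not say whether libraries of a group came from separate cultures, so the p-values measure the spread between these libraries, which may be technical.

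The APC/C is a ubiquitin ligase that sends mitotic cyclins, securin and other cell cycle proteins to the proteasome. CDC20 activates it in mitosis and FZR1 (also called CDH1) in late mitosis and G1, FBXO5 (EMI1) inhibits it through S and G2 phases, and the conjugating enzymes UBE2C and UBE2S start and lengthen the ubiquitin chains. CCNF encodes cyclin F, the substrate receptor of a separate ligase of the SCF family, which targets RRM2, the small subunit of ribonucleotide reductase, among others. CDC20, UBE2C and CCNF transcripts are known to peak in G2 and mitosis in cycling human cells, while the core subunits are known as transcripts that vary little over the cycle.

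Transcripts of CCNF, CDC20 and UBE2S fell after 3 h of clofarabine, and none of the 4 core subunits was called in either direction. CCNF stood at 0.506 of its DMSO level, CDC20 at 0.597 and UBE2S at 0.721. Of the 11761 genes tested, 1.03% were called lower and 2.57% were called in either direction (edgeR's quasi-likelihood test, Benjamini-Hochberg adjusted p under 0.05), while 3 of the 6 regulators were called lower and 0 higher. Members and the lists below were chosen with earlier results known, so such counts describe the genes and are no independent support. The median log2 fold change was −0.47 over the 5 regulators other than UBE2C and −0.0092 over the 4 core subunits, and 0.0020 over all tested genes. UBE2C, at −0.89, passed the filter through its DMSO libraries only and would move the regulators' median to −0.61, from which nothing is read. With the libraries thinned to equal depth CCNF, CDC20 and UBE2S were again called, at log2 fold changes of −0.98, −0.76 and −0.50. These are RNA levels of whole cultures, in which fewer cells in a phase of the cycle and less RNA per cell cannot be told apart.

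**Figure D1:**
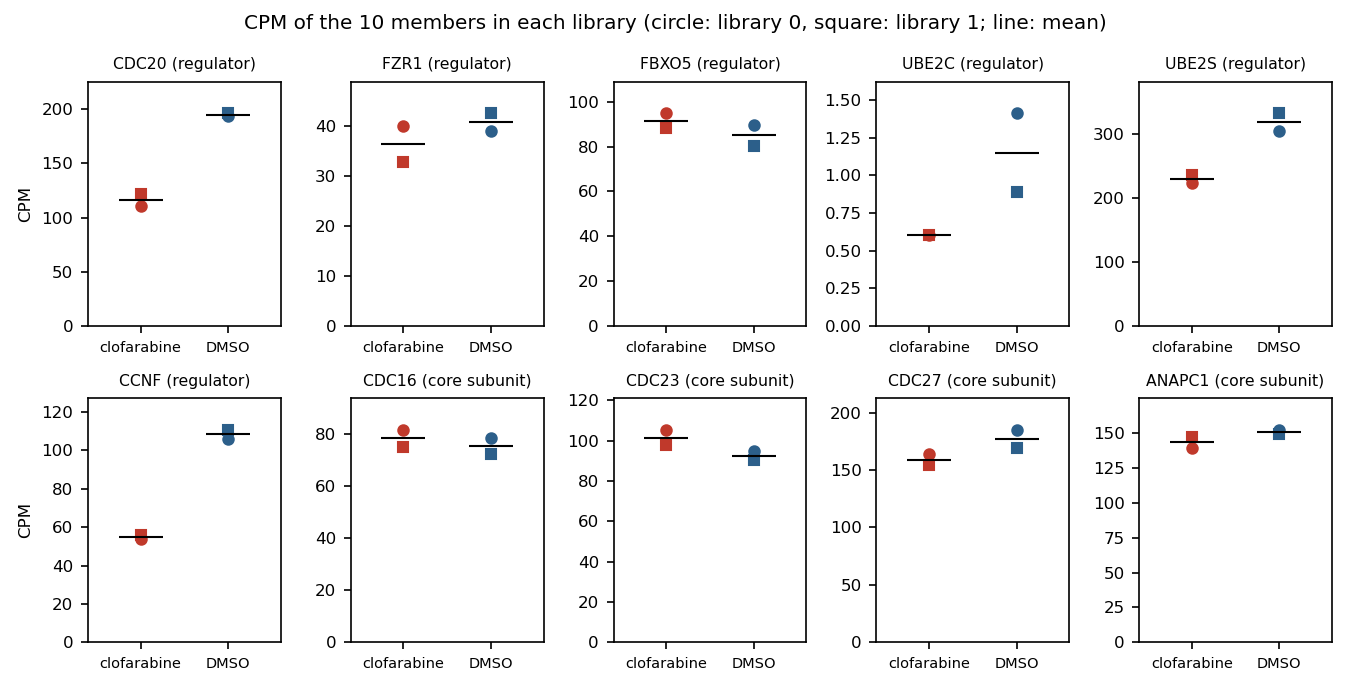
CPM (fragment counts scaled to library size with TMM factors; vertical axis, starting at 0 in each panel) of the 6 regulators and 4 core subunits, with the 2 clofarabine libraries left of the 2 DMSO libraries and a line at each group mean. For CCNF, CDC20 and UBE2S both clofarabine libraries lie well under both DMSO libraries, while the points of the core subunits lie close together.

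CCNF had 53.6 and 56.0 CPM in the clofarabine libraries C0 and C1, against 106 and 111 CPM in the DMSO libraries V0 and V1. Neither group reached the other, and the libraries of each differed by a small part of the gap between groups. Of all tested genes, 21.3% were lower without overlap in this way, and 43.2% did not overlap in either direction. The same shares stand beside each gene below whose groups were apart. On the log2 scale the fold change was −0.98 (SE 0.078, edgeR adjusted p = 5.9e-08), with a 95% interval of −1.14 to −0.82. CCNF ranked 63rd of 11761 from the lowest log2 fold change.

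CDC20, the mitotic activator of the complex, had 110.5 and 122 CPM in C0 and C1, against 194 and 196 CPM in V0 and V1. Its groups did not overlap either, and the spread was wider in the clofarabine libraries than in the DMSO libraries. The log2 fold change was −0.75 (SE 0.070, edgeR adjusted p = 6.0e-07; 95% interval −0.89 to −0.60). FZR1, the activator that takes over from CDC20 as cells leave mitosis, had 40.0 and 32.8 CPM in C0 and C1, against 38.9 and 42.5 CPM in V0 and V1. These groups overlapped, and FZR1 was not called (log2 fold change −0.18, SE 0.11, edgeR adjusted p = 0.509). The estimate rested on single libraries, being −0.32 without C0 and −0.033 without C1, and was not called in either fit. Its 95% interval of −0.40 to 0.048 does not reach the estimate for CDC20. In RefSeq, FZR1 overlaps MFSD12, a gene with a mean of 41.9 CPM and a log2 fold change of −0.20 (edgeR adjusted p = 0.364). The part of MFSD12 fragments in the FZR1 values, and so in ratios to FZR1, was not tested.

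Among the conjugating enzymes, UBE2S, which extends the ubiquitin chains, had 223 and 237 CPM in C0 and C1, against 305 and 333 CPM in V0 and V1. Both clofarabine libraries stood lower than both DMSO libraries (log2 fold change −0.47, 95% interval −0.61 to −0.33, SE 0.068, edgeR adjusted p = 1.8e-04). In the RefSeq annotation RPL28, a ribosomal protein gene with a mean of 846 CPM, overlaps UBE2S, and its log2 fold change was 0.092 (edgeR adjusted p = 0.629). No source used here says whether fragments were counted by strand, and the part of RPL28 fragments in the UBE2S values was not tested. RefSeq also names 2 pseudogenes after UBE2S and 1 after CDC20, none of them in the deposited table. The counts of UBE2S and CDC20 are uncertain to the extent that fragments map to several copies.

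UBE2C, which starts the chains, had only 8 and 14 fragments in C0 and C1, against 12 and 10 fragments in V0 and V1. As CPM this came to 0.602 and 0.605 in C0 and C1, against 1.41 and 0.891 in V0 and V1. UBE2C passed the low-count filter through its DMSO libraries only, so no direction is read from it, and it was not called (log2 fold change −0.89, SE 0.58, edgeR adjusted p = 0.550). The 95% interval was wide, from −2.09 to 0.31. UBE2C is known as an abundant transcript of dividing cells, and whether its fragments were lost in the authors' mapping or counting was not tested. RefSeq lists 5 pseudogenes named after UBE2C, none of them in the deposited table, and near-identical copies make the fragments given to UBE2C uncertain.

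FBXO5, the inhibitor of the complex, had 94.8 and 88.4 CPM in C0 and C1, against 89.8 and 80.1 CPM in V0 and V1. The groups overlapped and FBXO5 was not called (log2 fold change 0.11, SE 0.080, edgeR adjusted p = 0.606; 95% interval −0.057 to 0.28). The estimate was positive with each library left out in turn, between 0.020 (without V1) and 0.19 (without V0), and not called in any of these fits.

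Promoter sequence is shown for the 3 regulators that fell and for FBXO5 and CDC23, which were not called, because CDC20 and CCNF are known as targets of the cell cycle genes homology region (CHR), an element of promoters active in G2 and mitosis. RefSeq (GRCh38.p14, another build than the hg19 of the counts) gave 11 windows for 9 of the 10 members, UBE2C not among them. Each line gives the 250 bases before the gene's RefSeq start, 5′ to 3′ on the gene's strand. In 8 of the 11 windows, bases soon after the start matched a transcript of the gene in a second annotation, GENCODE. The CDC20 window and the FBXO5 window printed here had no match on either strand, so their distances rest on RefSeq alone. Capitals mark the CHR letters TTTGAA and the CCAAT box CCAAT on either strand, so that TTCAAA and ATTGG are the same elements read from the other strand. The windows are chr1:43358731-43358980 (plus strand) for CDC20, chr16:2429197-2429446 (plus) for CCNF, chr19:55407789-55408038 (minus) for UBE2S, chr6:152983042-152983291 (minus, 1 of its 2 listed windows) for FBXO5 and chr5:138213324-138213573 (minus) for CDC23.
CDC20: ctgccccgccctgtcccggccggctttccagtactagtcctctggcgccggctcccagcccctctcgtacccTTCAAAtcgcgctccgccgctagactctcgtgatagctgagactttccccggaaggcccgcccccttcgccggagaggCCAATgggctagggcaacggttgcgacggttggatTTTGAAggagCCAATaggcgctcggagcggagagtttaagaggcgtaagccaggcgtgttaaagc
CCNF: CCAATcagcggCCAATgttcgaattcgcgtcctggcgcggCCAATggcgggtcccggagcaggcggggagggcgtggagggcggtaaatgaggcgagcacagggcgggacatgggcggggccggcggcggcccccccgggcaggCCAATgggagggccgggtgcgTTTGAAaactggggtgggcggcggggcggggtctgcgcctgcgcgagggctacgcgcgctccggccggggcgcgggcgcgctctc
UBE2S: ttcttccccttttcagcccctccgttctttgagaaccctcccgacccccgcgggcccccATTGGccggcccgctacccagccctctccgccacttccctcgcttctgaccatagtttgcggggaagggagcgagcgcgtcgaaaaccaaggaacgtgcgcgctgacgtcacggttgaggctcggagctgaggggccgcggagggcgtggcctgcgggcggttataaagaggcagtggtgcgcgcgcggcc
FBXO5: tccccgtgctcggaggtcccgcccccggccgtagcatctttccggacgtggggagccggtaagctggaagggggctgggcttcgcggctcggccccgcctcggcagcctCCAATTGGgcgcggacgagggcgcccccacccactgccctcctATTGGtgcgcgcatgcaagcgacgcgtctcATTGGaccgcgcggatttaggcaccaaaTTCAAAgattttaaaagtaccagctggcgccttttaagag
CDC23: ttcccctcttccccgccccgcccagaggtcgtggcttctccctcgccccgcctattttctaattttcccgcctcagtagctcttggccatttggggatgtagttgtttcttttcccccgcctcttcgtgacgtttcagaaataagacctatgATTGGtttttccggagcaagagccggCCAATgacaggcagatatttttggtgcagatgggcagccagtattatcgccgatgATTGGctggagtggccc

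In the CDC20 window the CHR letters lie 65 to 60 bases before the start, between CCAAT boxes at 100 to 96 and at 55 to 51 bases, and occur once more on the other strand 178 to 173 bases before the start. In the CCNF window they lie 85 to 80 bases before the start, with the nearest of 4 CCAAT boxes at 106 to 102 bases. The printed FBXO5 window has them on the other strand, 40 to 35 bases before the start, with 4 CCAAT boxes upstream, the outer pair overlapping each other. The other FBXO5 window, which did match a GENCODE transcript, had 0 CHR matches and 0 CCAAT boxes. UBE2S has 0 CHR matches and 1 CCAAT box, and CDC23 has 0 CHR matches and 3 CCAAT boxes. Over all members, the CHR letters were in windows of 4 regulators (CDC20, CCNF, FBXO5 and FZR1) and of 0 core subunits. By window, 4 of the 11 held the CHR letters, 7 held a CCAAT box and 3 held both. Among the 250 bases before the start in all 35116 promoter windows of the table, 13.3% held the CHR letters, 32.0% held a CCAAT box and 4.69% held both. The letters TTTCCCGC, searched for as an E2F site, went the other way. Among members they were only in windows of the core subunits CDC23 and CDC16, and 1.39% of all windows held them. The CHR letters were present in regulators that fell and in regulators that were not called, and absent from UBE2S, which fell. A match describes these letters only and says nothing of a protein bound there.

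None of the core subunits was called, and their intervals were narrow. CDC16, a scaffold subunit built of TPR repeats, had 81.6 and 75.1 CPM in C0 and C1, against 78.3 and 72.5 CPM in V0 and V1, and the groups overlapped. Its log2 fold change was 0.053 (95% interval −0.12 to 0.22), and the sign turned without C0 (−0.0039) or without V1 (−0.010). CDC23, another TPR subunit, had 105 and 97.6 CPM in C0 and C1, against 94.7 and 90.5 CPM in V0 and V1. Its clofarabine libraries stood just above its DMSO libraries, and it was not called (log2 fold change 0.13, SE 0.076, edgeR adjusted p = 0.483; 95% interval −0.028 to 0.29). In RefSeq, CDC23 overlaps KIF20A, a kinesin gene of cytokinesis whose log2 fold change was −1.38 at a mean of 56.6 CPM, and the part of KIF20A fragments in the CDC23 values was not tested.

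CDC27, the TPR subunit that receives the activators, had 164 and 154 CPM in C0 and C1, against 185 and 169 CPM in V0 and V1. The clofarabine libraries lay below the DMSO libraries, as in 21.3% of all tested genes (22% lay above, 43.2% in all did not overlap). For CDC27 the log2 fold change was −0.16 (SE 0.070), with an unadjusted p of 0.0351 and an edgeR adjusted p of 0.306. ANAPC1, the largest scaffold subunit, had 139 and 147 CPM in C0 and C1, against 152 and 149 CPM in V0 and V1. Its groups lay side by side without overlap (log2 fold change −0.072, 95% interval −0.21 to 0.071, edgeR adjusted p = 0.721). RefSeq names 11 pseudogenes after CDC27 and 6 after ANAPC1, of which ANAPC1P1 alone was in the table, with at most 2 fragments in a library, so both counts are uncertain to the extent that fragments map to several copies. DESeq2 and limma-voom likewise called 0 of the 4 core subunits, while edgeR called 2.57% of all tested genes. An unadjusted edgeR p under 0.05 was found for 1 of the 4, CDC27, and for 713 lower and 961 higher genes of the 11761 tested.

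**Figure D2:**
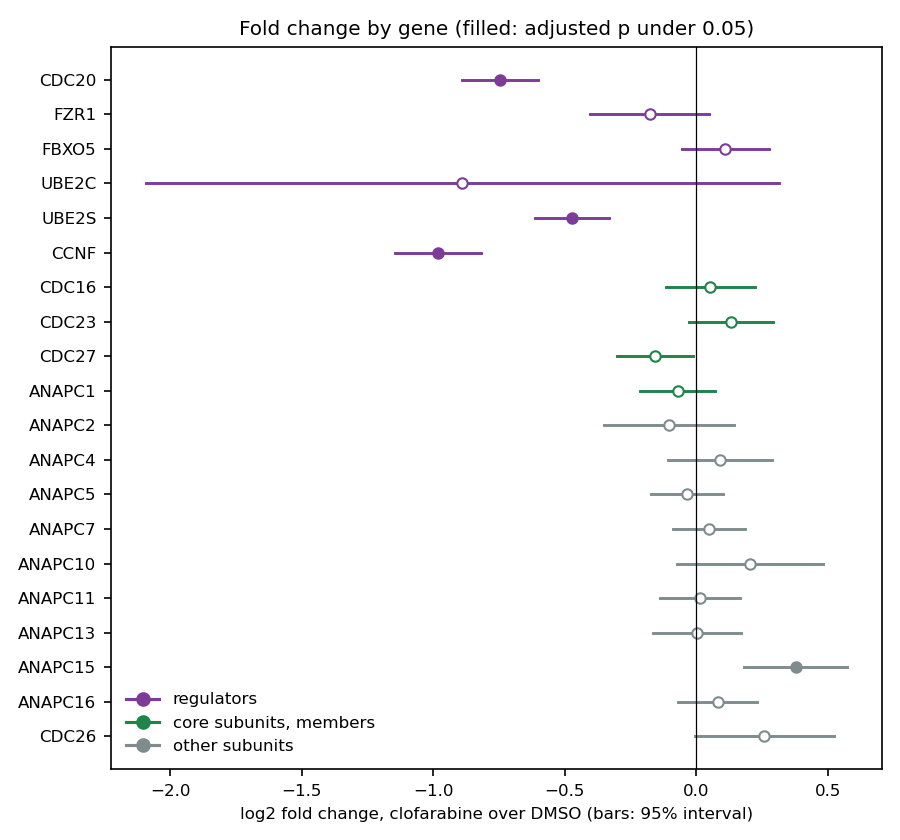
Log2 fold change of clofarabine over DMSO (horizontal axis) with 95% intervals from edgeR for the 10 members and 10 other subunits of the complex; filled points are called at an adjusted p under 0.05. The filled points of CDC20, UBE2S and CCNF lie left of 0 and that of ANAPC15 right of it, while the core subunits lie between −0.16 and 0.13.

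Set beside the core subunits, the regulators were divided. The upper bounds for CCNF, CDC20 and UBE2S, the regulators called lower, were −0.82, −0.60 and −0.33, and the lowest bound of any core subunit was −0.30, for CDC27. The intervals of FZR1 and FBXO5 overlapped those of core subunits. The difference between genes was not itself tested. Within each library, the mean log2 CPM of the 5 regulators other than UBE2C minus that of the 4 core subunits was −0.44 in C0 and −0.40 in C1, against −0.039 in V0 and 0.078 in V1. Both clofarabine libraries lay below both DMSO libraries, an order that 21.3% of single tested genes also had.

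On the FPKM scale, the authors' level per length of transcript, the order of the members was nearly the same in every library. UBE2S was highest, at 226 ± 9.16 FPKM in clofarabine and 314 ± 18.2 FPKM in DMSO (mean ± SD, n = 2 each), followed by CDC20 (76.8 ± 5.04 FPKM in clofarabine and 129 ± 0.639 FPKM in DMSO) and FBXO5 (46.4 ± 2.13 FPKM in clofarabine and 43.2 ± 3.17 FPKM in DMSO). FBXO5 and CDC20 differed by more than their spreads in either group. CDC16, CDC23 and CDC27 lay close together, at 37.0 ± 2.31, 33.5 ± 1.87 and 28.7 ± 1.26 FPKM in clofarabine. In DMSO they had 35.8 ± 1.91, 30.6 ± 1.08 and 32.0 ± 2.11 FPKM, and CDC27 stood above CDC23 there in place of below it. CCNF had 13.1 ± 0.387 FPKM in clofarabine and 25.9 ± 0.695 FPKM in DMSO, and ranked 8th of the 10 in both clofarabine libraries, against 7th in both DMSO libraries. ANAPC1 took the other of those places, at 18.5 ± 0.743 FPKM in clofarabine and 19.5 ± 0.342 FPKM in DMSO. FZR1 (10.5 ± 1.45 FPKM in clofarabine, 11.7 ± 0.575 FPKM in DMSO) was 9th and UBE2C (0.778 ± 0.189 FPKM in clofarabine, 2.22 ± 0.951 FPKM in DMSO) 10th throughout.

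Ratios of FPKM levels within a library give the members relative to their partners. CDC20 stood at 6.38 and 8.53 times the level of FZR1 in C0 and C1, against 11.4 and 10.7 times in V0 and V1. The excess of the mitotic activator over FZR1 was smaller in both clofarabine libraries. The inhibitor FBXO5 stood at 4.17 and 4.76 times FZR1 in C0 and C1, against 4.01 and 3.38 times in V0 and V1, a smaller difference next to the spread within groups. RRM2 stood at 10.8 and 10.1 times CCNF in C0 and C1, against 4.10 and 3.88 times in V0 and V1. This ratio was the most separated, as RRM2 rose (SE 0.064 on a log2 fold change of 0.40, edgeR adjusted p = 6.3e-04) while CCNF fell.

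**Figure D3:**
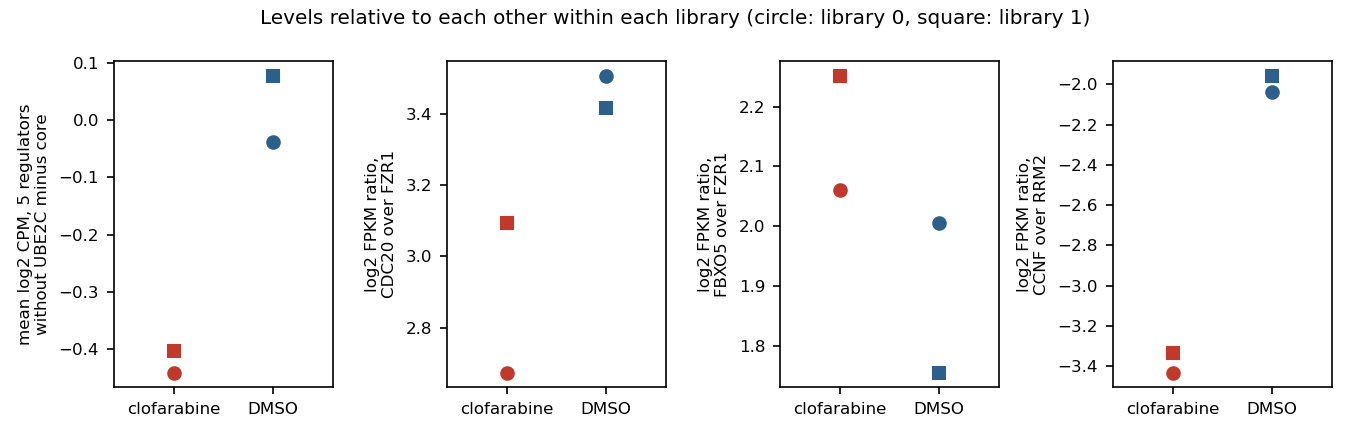
Levels within each library, with clofarabine left of DMSO: the mean log2 CPM of the 5 regulators other than UBE2C minus that of the 4 core subunits, and the log2 FPKM ratios of CDC20 to FZR1, FBXO5 to FZR1 and CCNF to RRM2. Axes do not start at 0; both clofarabine libraries are lower in each panel except FBXO5 over FZR1, where both are higher.

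The genes nearest to CDC20 over the 4 libraries, by Euclidean distance of centred log2 CPM among 8481 genes with a mean of at least 10 CPM, were FAM83D, PLK1, TGIF1, CDCA8 and INCENP. FAM83D, a spindle protein gene, had 22.0 and 23.8 CPM in C0 and C1, against 37.1 and 38.0 CPM in V0 and V1, at a distance of 0.042. PLK1 encodes a mitotic kinase, CDCA8 and INCENP encode chromosomal passenger proteins and TGIF1 a homeodomain transcription factor, at distances of 0.081 to 0.11. All 5 fell, with log2 fold changes between −0.77 and −0.67. Distances over 4 libraries rest mainly on the difference between the groups.

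Of the 10 other subunits of the complex, listed by name, 1 rose, 0 fell and 9 were not called, while 1.54% of all tested genes were called higher and 1.03% lower. The median log2 fold change of these subunits was 0.063, against 0.0020 over all genes. ANAPC15, a small subunit that takes part in the turnover of the mitotic checkpoint complex, had 50.5 and 57.3 CPM in C0 and C1, against 41.5 and 41.8 CPM in V0 and V1. Its log2 fold change was 0.38 (SE 0.094, edgeR adjusted p = 0.033). It was no longer called when C1 (adjusted p = 0.215), V0 (0.0939) or V1 (0.219) was left out, nor at equal depth (0.116), by DESeq2 (0.152), with upper-quartile scaling (0.0528), on the log2(FPKM + 1) scale (0.109) or with the length trend taken out (0.0541). The log2(FPKM + 0.1) scale did not call it either. It is in the lowest of 10 classes of transcript length, and C1 was its highest library. Including CDC16, CDC23, CDC27 and ANAPC1, the subunits had log2 fold changes between −0.16 and 0.38.

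Among 6 genes of the mitotic checkpoint, which restrains CDC20 until chromosomes are attached, 3 fell and 0 rose, with a median log2 fold change of −0.37, while 1.03% of all tested genes were called lower. BUB1B, which encodes BUBR1 (log2 fold change −0.53, edgeR adjusted p = 3.4e-04), and the kinase genes TTK (−0.46, edgeR adjusted p = 0.0026) and BUB1 (−0.34, edgeR adjusted p = 0.0056) were lower. MAD2L1, which encodes MAD2, the direct CDC20 inhibitor, had 132 and 143 CPM in C0 and C1, against 136 and 132 CPM in V0 and V1, and was not called (0.042). BUB3, whose product joins BUBR1 and MAD2 in holding CDC20, was not called either (−0.0025). MAD1L1, which encodes MAD1, the protein that recruits MAD2 to kinetochores, was not called at a log2 fold change of −0.39 (edgeR adjusted p = 0.0753), a size larger than that of BUB1. It was called lower when scaled by library size only (adjusted p = 0.0253), when all genes were kept whatever their count (0.0304), on the authors' scaled fragments (0.0240), with the length trend removed (0.0284), without C1 (0.0230) or without V0 (0.0242). On the log2(FPKM + 1) and log2(FPKM + 0.1) scales 0 of the 6 were called, and BUB1 was not called without V0 (adjusted p = 0.144).

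Among 18 other regulators of the complex, 16 could be tested, of which 2 fell, 2 rose and 12 were not called (median 0.060), against 1.03% lower and 1.54% higher over all tested genes. The falls were PLK1, whose product phosphorylates EMI1 and subunits of the complex (log2 fold change −0.77, edgeR adjusted p = 3.1e-07), and CCNB1, cyclin B1 (−0.66, edgeR adjusted p = 8.5e-07). The rises were CCNE2 (1.19, edgeR adjusted p = 5.6e-08) and CCNE1 (0.49, edgeR adjusted p = 0.0038), the E-type cyclins whose kinase restrains FZR1. CCNE1 was not called on the log2(FPKM + 1) scale (adjusted p = 0.0672) or the log2(FPKM + 0.1) scale (0.0589). With the length trend removed 2 fell and 4 rose. USP37, a deubiquitinase that opposes the complex, was not called (0.39, edgeR adjusted p = 0.0616) but was higher with the length trend removed (0.42, adjusted p = 0.0075), at equal depth (0.0109), with no filter (0.0150), on the scaled fragments (0.0430) or without C1 (0.0011). FBXO43, the germ cell counterpart of FBXO5, had at most 3 fragments in a library and CDC20B had 0 in each.

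Of 37 genes whose proteins the complex targets, 18 fell, 5 rose and 14 were not called, and the median log2 fold change was −0.32, while 1.03% of all tested genes were called lower and 1.54% higher. The falls of smallest p were those of KIF20A (−1.38), AURKA, a kinase of centrosome maturation (−0.90), PLK1 and CCNB1. The 18 falls are not separate from those above. They include PLK1 and CCNB1 from the other regulators, and BUB1B, TTK and BUB1 from the checkpoint genes. CCNB1 had 248 and 257 CPM in C0 and C1, against 397 and 401 CPM in V0 and V1, lower without overlap, as were 21.3% of tested genes. The rises were CDC6, an origin licensing factor (0.62, edgeR adjusted p = 2.3e-06), RRM2, CDC25A, which encodes a phosphatase acting on cyclin-dependent kinases (0.42, edgeR adjusted p = 8.4e-04), CDKN1A, the kinase inhibitor p21 (0.62, edgeR adjusted p = 0.0017), and GMNN, geminin, the inhibitor of origin licensing (0.33, SE 0.067, edgeR adjusted p = 0.0073). CCNA2, cyclin A2, had 230.4 and 232 CPM in C0 and C1, against 259.5 and 257 CPM in V0 and V1, apart but not called (−0.16, edgeR adjusted p = 0.237). PTTG1, securin, had 121 and 135 CPM in C0 and C1, against 142 and 137 CPM in V0 and V1, and was not called (−0.12, edgeR adjusted p = 0.498). Its estimate was −0.044 without C0, and with the length trend removed it was −0.25 and called (adjusted p = 0.0124). GMNN was not called without V1 (adjusted p = 0.289), and on the log2(FPKM + 1) scale 8 genes of this list fell and 3 rose.

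Transcripts of several cyclin F targets rose while that of CCNF fell. Cyclin F acts on the proteins, whose levels these RNA data do not give, and a link between the changes was not tested. Of 14 targets and partners listed, 6 rose, 0 fell and 8 were not called, with a median log2 fold change of 0.26, while 1.54% of all tested genes were called higher. The rises were CDC6, EXO1, an exonuclease of DNA repair (0.49, edgeR adjusted p = 1.4e-04), RRM2, CDC25A, SLBP, the protein that binds the stem-loop of histone mRNAs (0.36, edgeR adjusted p = 0.0020), and E2F2, a transcription factor of S phase entry (0.41, edgeR adjusted p = 0.017). EXO1 had 168 and 168 CPM in C0 and C1, against 124 and 115 CPM in V0 and V1. SLBP had 276 and 270.3 CPM in C0 and C1, against 213 and 212 CPM in V0 and V1. FZR1 is also in this list, and CDC6, RRM2 and CDC25A are also among the targets of the APC/C. NUSAP1, a spindle protein that both ligases target, was not called (−0.20, edgeR adjusted p = 0.123), though it was called lower with library sizes alone (adjusted p = 0.0398), on the scaled fragments (0.0396) or with the length trend removed (0.0362). SLBP was not called without V1 (adjusted p = 0.0620), and E2F2 missed the threshold without V1 (0.306), without C1 (0.0706) or by DESeq2 (0.0802). Only 3 of the 14 rose on the log2(FPKM + 1) scale.

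**Figure D4:**
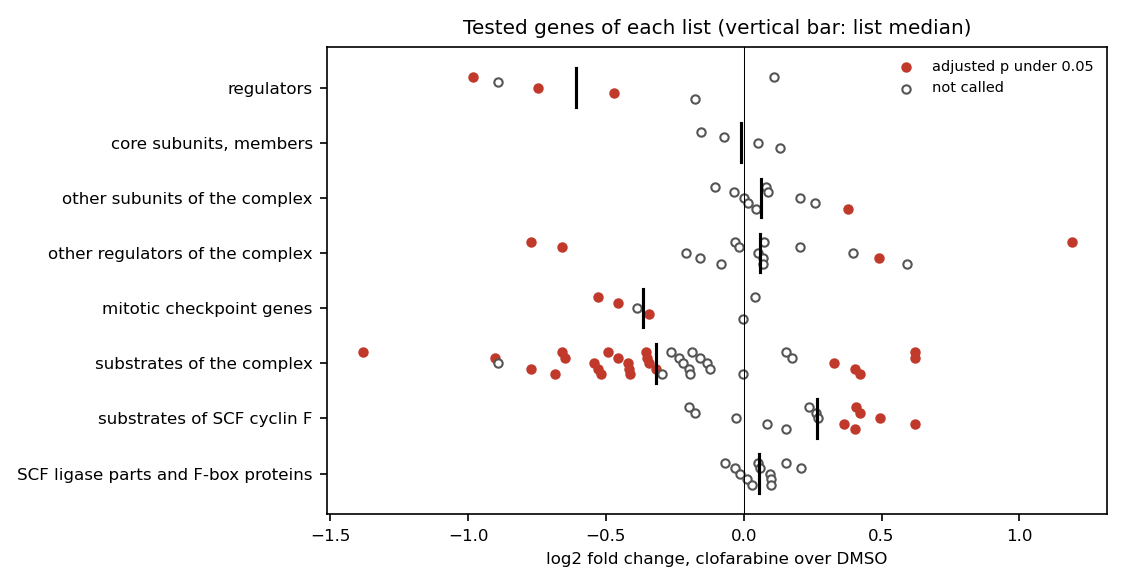
Log2 fold change of clofarabine over DMSO (horizontal axis) for the tested genes of each list (rows), filled where called at an adjusted p under 0.05, with a bar at the list median (UBE2C included among the regulators). Filled points lie left of 0 for the regulators and checkpoint genes, right of 0 for the targets of cyclin F, and on both sides for the targets of the complex.

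Among 12 parts of SCF ligases and F-box proteins, the family to which cyclin F belongs, edgeR, DESeq2 and limma-voom each called 0. Of all 11761 tested genes, edgeR called 2.57%. An unadjusted edgeR p under 0.05 was found for 713 lower and 961 higher genes of all tested, and for 1 of the 12. That gene was NEDD8, whose product activates the cullin of these ligases (log2 fold change 0.21, edgeR adjusted p = 0.269). Its value rested on single libraries, being 0.34 and called without C0 (adjusted p = 0.0017) and 0.044 without C1, and it was 0.059 with the length trend removed. SKP2, the F-box protein that targets p27, had 104.5 and 104.4 CPM in C0 and C1, against 95.1 and 93.1 CPM in V0 and V1. Its groups were close and apart, and it was not called (0.15, SE 0.073, edgeR adjusted p = 0.355). The difference between CCNF and these genes was not tested.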

How the data were processed

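The submitters' processing notes name cutadapt 1.5, TopHat2 2.0.13, Cuffdiff 2.2.1 and build hg19, and no annotation or strand setting is given in the sources at hand. Per the file headers, the authors deposited estimated counts of fragments per gene and library, a scaled signal (those counts times 1 factor per library) and FPKM values. Which library is which labelled replicate is not given.

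Rounding the estimated counts changed 431 to 483 genes per library. Genes were kept by edgeR's filterByExpr (minimum count 10), scaled by TMM (factors 0.968 to 1.02) and tested with group alone as a term by the quasi-likelihood test of edgeR 4.0.16 in R 4.3.3, adjusted by Benjamini-Hochberg over 11761 genes. Standard errors are the log2 fold change over the square root of F. The procedure was run on simulated counts that had the same dispersion in every gene and no trend with length. How reliable the calls are in these libraries is not read from that run. Libraries of a group differed by more than sampling noise (chi-square over its degrees of freedom was 6.55 between C0 and C1, and 2.73 between V0 and V1). Between groups it was 4.08 for C0 and V0 and 7.34 to 10.8 for the other pairs, so C0 differed less from V0 than from C1. The statistic was not adjusted for depth.

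All 10 members are named. From each other list up to 4 called genes per direction by smallest p are named, or the smallest p where none was called, with RRM2, CCNA2, CCNB1, PTTG1, GMNN and SKP2 always; others named were chosen after their values were seen. Members and lists were chosen with earlier results of these data known. Alternatives used DESeq2 1.42.0, limma 3.58.1, other scalings and filters, log2(FPKM + 1) and log2(FPKM + 0.1), a removed length trend (loess, span 0.3), thinning to equal depth, each library left out, thresholds of 0.01 and 0.1, and a replicate block. Where a library is left out, the lone sample of its group is assumed to vary like the other group. A further gene of the marker list is not reported here.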

Additional observations from a re-analysis of the deposited data

How the results depend on the processing

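The 3 calls among the regulators (CCNF, CDC20 and UBE2S) and the 0 calls among the core subunits held under every alternative run. Across the 17 alternatives that refit the data, log2 fold changes were −1.02 to −0.93 for CCNF, −0.82 to −0.68 for CDC20 and −0.53 to −0.41 for UBE2S, whose largest adjusted p was 0.0432, on the log2(FPKM + 1) scale. The regulators' median minus that of the core subunits, −0.60 with UBE2C among the regulators, was −0.46 with a CPM of 1 in 2 libraries, which removes UBE2C, and −0.46 with UBE2C left out (chosen after seeing the data). It was −0.49 with libraries thinned to equal depth, where UBE2C is also filtered out. With UBE2C still among the regulators it was −0.65 once the length trend was removed and −0.67 to −0.53 with a library left out, from which nothing is read. CDC16 ranged from −0.010 to 0.11 with a library left out and was not called in any of these fits.

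Over all genes 302 were called, 121 lower and 181 higher. The number was 478 with no filter, 168 with DESeq2, 56 on the log2(FPKM + 1) scale, 72 on the log2(FPKM + 0.1) scale, 469 once the length trend was removed, 796 with the replicate block, 128 at a threshold of 0.01, 466 at 0.1, and 130 (without V1) to 636 (without C0) with a library left out; the cause was not tested. With library sizes alone 200 genes were lower and 170 higher, and with the authors' scaled fragments 211 lower and 182 higher. Whether the table's library numbers pair the samples is not given. The correlation of deviations of C0 and V0 from their group means was −0.0038, which with 2 libraries per group can neither show nor exclude pairing. Under the replicate block no member gained or lost its call. Among listed genes the block called NEDD8 (adjusted p = 0.0424), MAD1L1 (0.0053), NUSAP1 (0.0190) and USP37 (0.0022). UBE2C had 8 to 14 fragments in a library.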
